A study of Mus musculus with 6 samples.

Results

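Hox genes encode homeodomain transcription factors and lie in 4 clusters (Hoxa, Hoxb, Hoxc and Hoxd), in which each gene has a paralog number that gives its place along the cluster. Genes with low numbers are known to be switched on early and in anterior parts of the embryo, and genes with high numbers later and more posteriorly, so that the set of Hox genes a cell transcribes marks the body level from which it came. Cultured fibroblasts and vascular smooth muscle cells are known to keep such a set after isolation. Hox proteins bind DNA through the homeodomain, often together with cofactors of the TALE family, while Polycomb and Trithorax complexes hold the clusters silent or active and retinoic acid and Cdx factors act on them in the embryo.

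The genes described here are the protein-coding rows of the count table whose symbol is Hox followed by the letter of a cluster and a paralog number, 38 of 41721 rows. They are 10 Hoxa genes (chromosome 6, minus strand), 10 Hoxb genes (chromosome 11, 101582476 to 101764753), 9 Hoxc genes (chromosome 15, 109047774 to 109168505) and 9 Hoxd genes (chromosome 2, 77216639 to 77320646), the last 3 clusters on the plus strand. Coordinates are those of the count table, whose identifiers belong to the C57BL/6NJ strain annotation, although the labels name GRCm39. Hoxa4 is not among the 38, because its row carries no symbol.

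The libraries came from smooth muscle cells of the mouse abdominal aorta (MASMCs), grown in culture and treated with 1 µM Ang II, the vasoconstrictor peptide angiotensin II, for 48 h. Pdk4 encodes a kinase that inhibits the pyruvate dehydrogenase complex. Both genotypes carry loxP sites around exons 4, 5 and 6 of Pdk4 on both alleles, and mice of both received tamoxifen for 5 days from 6 weeks of age. Pdk4SMKO mice (3 libraries) also carry a tamoxifen-inducible Cre driven by the Myh11 promoter, which is active in smooth muscle, whereas Pdk4fl/fl mice (3 libraries) do not. Cells were isolated at 10 weeks of age and used at passages 4 to 8. The study describes the libraries of a genotype as biological replicates, and the sources used here do not say whether each came from its own mouse or from its own culture, so p-values measure the spread between these libraries. Pairs of libraries of a genotype differed by more than counting noise (chi-square per degree of freedom 8.99 to 56.9).

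Between 16526044 and 22481670 reads were counted per library, and a count of 3, taken as the floor of detection per library, was worth between 0.132 and 0.227 CPM (counts of a gene per 1000000 counts of the TMM-scaled library). Pdk4 had 570, 639 and 421 counts in Pdk4fl/fl and 110, 182 and 141 in Pdk4SMKO cells, and its log2 fold change (Pdk4SMKO minus Pdk4fl/fl in all that follows) was -2.34 ± 0.22 (SE). The study states that its mice were male, but Xist, the RNA of the inactive X chromosome, had 3, 4 and 5 counts in the Pdk4fl/fl libraries and 610, 347 and 321 in the libraries labelled Pdk4SMKO. The smooth muscle markers did not move together. Acta2 rose from 188-268 to 621-768 CPM, whereas Smtn fell from 212-323 to 45.9-63.7 CPM (log2 fold change -2.28), Tagln from 227-297 to 34.0-86.9 CPM (-2.26) and Cnn1 from 18.6-20.8 to 2.99-14.1 CPM (-1.50). Lmod1 (2.34) and Des (2.835) were also higher. Myh11 rose from 0.533-0.757 to 2.19-2.72 CPM (1.965), low in both genotypes. Of the 8 smooth muscle markers listed, 4 were called higher and 3 lower, by the rule given below. Des (5, 1 and 0 Pdk4fl/fl counts) and Myh11 (8, 10 and 10) passed the filter on low counts through their Pdk4SMKO counts. These genes could only be called higher. Genotype and any other difference in the origin of these cells cannot be told apart in this design. With edgeR's quasi-likelihood test, 3733 of 14085 tested genes (26.5%) were lower and 4616 (32.8%) higher in Pdk4SMKO cells when called by a 2-fold difference or more with an adjusted p below 0.05, and 81.8% of tested genes did not overlap between the genotypes.

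The homeobox, the 180 bases that encode the homeodomain, shows how far paralogs of different clusters can be told apart by their reads. It is printed for 3 pairs in which the Hoxa or Hoxb gene was lower in every Pdk4SMKO library and its Hoxc paralog was called higher. Capitals mark the bases at which the members of a pair differ. The sequences were read from the GENCODE M21 transcripts (GRCm38), where they lie at chr11:96284174-96284353 (Hoxb8, plus strand, exon 2 of 2), chr15:102992571-102992750 (Hoxc8, plus strand, exon 2 of 2), chr11:96274659-96274838 (Hoxb9, plus strand, exon 2 of 2), chr15:102983930-102984109 (Hoxc9, plus strand, exon 3 of 3), chr6:52232554-52232733 (Hoxa10, minus strand, exon 2 of 2) and chr15:102970848-102971027 (Hoxc10, plus strand, exon 2 of 2).
Hoxb8: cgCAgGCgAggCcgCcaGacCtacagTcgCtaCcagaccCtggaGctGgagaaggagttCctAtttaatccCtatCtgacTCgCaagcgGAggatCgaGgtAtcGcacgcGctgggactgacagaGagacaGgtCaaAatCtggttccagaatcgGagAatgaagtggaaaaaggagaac
Hoxc8: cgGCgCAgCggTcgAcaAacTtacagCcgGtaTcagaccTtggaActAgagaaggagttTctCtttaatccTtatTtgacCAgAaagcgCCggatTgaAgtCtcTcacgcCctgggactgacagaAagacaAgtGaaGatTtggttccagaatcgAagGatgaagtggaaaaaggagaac
Hoxb9: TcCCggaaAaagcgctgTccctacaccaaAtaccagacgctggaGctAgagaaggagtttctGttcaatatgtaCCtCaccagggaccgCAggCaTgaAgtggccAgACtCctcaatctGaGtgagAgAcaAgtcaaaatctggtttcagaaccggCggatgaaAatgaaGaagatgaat
Hoxc9: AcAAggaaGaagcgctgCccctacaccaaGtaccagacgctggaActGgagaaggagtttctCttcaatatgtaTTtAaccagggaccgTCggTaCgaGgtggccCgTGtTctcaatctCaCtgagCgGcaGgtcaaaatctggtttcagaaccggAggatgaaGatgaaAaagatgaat
Hoxa10: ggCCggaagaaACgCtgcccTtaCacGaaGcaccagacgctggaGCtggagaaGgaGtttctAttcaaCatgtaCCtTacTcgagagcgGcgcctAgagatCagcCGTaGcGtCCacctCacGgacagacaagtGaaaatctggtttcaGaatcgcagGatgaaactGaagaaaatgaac
Hoxc10: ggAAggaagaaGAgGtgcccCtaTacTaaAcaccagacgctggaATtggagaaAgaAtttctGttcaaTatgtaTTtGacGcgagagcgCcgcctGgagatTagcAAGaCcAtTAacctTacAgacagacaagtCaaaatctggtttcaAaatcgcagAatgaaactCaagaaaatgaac
The Hoxb8 and Hoxc8 homeoboxes differ at 36 of 180 bases, and the longest run without a difference is 21 bases. Those of Hoxb9 and Hoxc9 differ at 29 bases, with a longest run of 24, and those of Hoxa10 and Hoxc10 at 35 bases, with a longest run of 14. Over the whole transcripts the longest run that the genes of a pair share is 26 bases for Hoxb8 and Hoxc8, 50 for Hoxb9 and Hoxc9 and 17 for Hoxa10 and Hoxc10. Over the 39 pairs of paralogs with the same number, identity of the homeobox ranged from 67.2% to 93.9% with a median of 80.6%. Hoxa3 and Hoxb3, both higher in Pdk4SMKO cells, are the most alike pair, with 11 differing bases and a longest shared run of 33.

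Both genotypes transcribed Hoxa and Hoxb genes, but the make-up of their Hox transcripts differed. In Pdk4SMKO cells Hoxa7, Hoxa9, Hoxa10 and Hoxb9 were lower by between 5.40-fold and 11.1-fold, genes of paralog groups 3 and 4 (Hoxa3, Hoxb3 and Hoxb4) were higher by between 2.64-fold and 4.97-fold, and Hoxc8, Hoxc9, Hoxc10 and Hoxd8, at or near 0 in Pdk4fl/fl cells, were detected in every library. Counts were found for 31 of the 38, while 7 had none in any library (Hoxa13, Hoxb1, Hoxc12, Hoxd1, Hoxd11, Hoxd12 and Hoxd13). The filter on low counts kept 22 genes (8 Hoxa, 8 Hoxb, 5 Hoxc and 1 Hoxd), and 16 were not tested. Of the 22, 6 were lower (Hoxa7, Hoxa9, Hoxa10, Hoxb2, Hoxb6 and Hoxb9) and 8 higher (Hoxa3, Hoxb3, Hoxb4, Hoxc6, Hoxc8, Hoxc9, Hoxc10 and Hoxd8), and 8 did not pass. In all 63.6% of the tested Hox genes were called against 59.3% of all tested genes, so the share called was near that of the table as a whole. The 2 genotypes did not overlap for 18 of the 22, as for 81.8% of all tested genes, and the median log2 fold change was 0.39 against 0.12 over all tested genes. In RNA from a whole culture, fewer cells of a kind and less RNA per cell cannot be told apart. For every gene whose libraries did not overlap, the exact two-sided permutation test gave p = 0.1, the smallest that 3 libraries against 3 allow. The adjusted p-values below are those of edgeR's quasi-likelihood test with Benjamini-Hochberg adjustment over the 14085 genes.

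**Figure D1:**
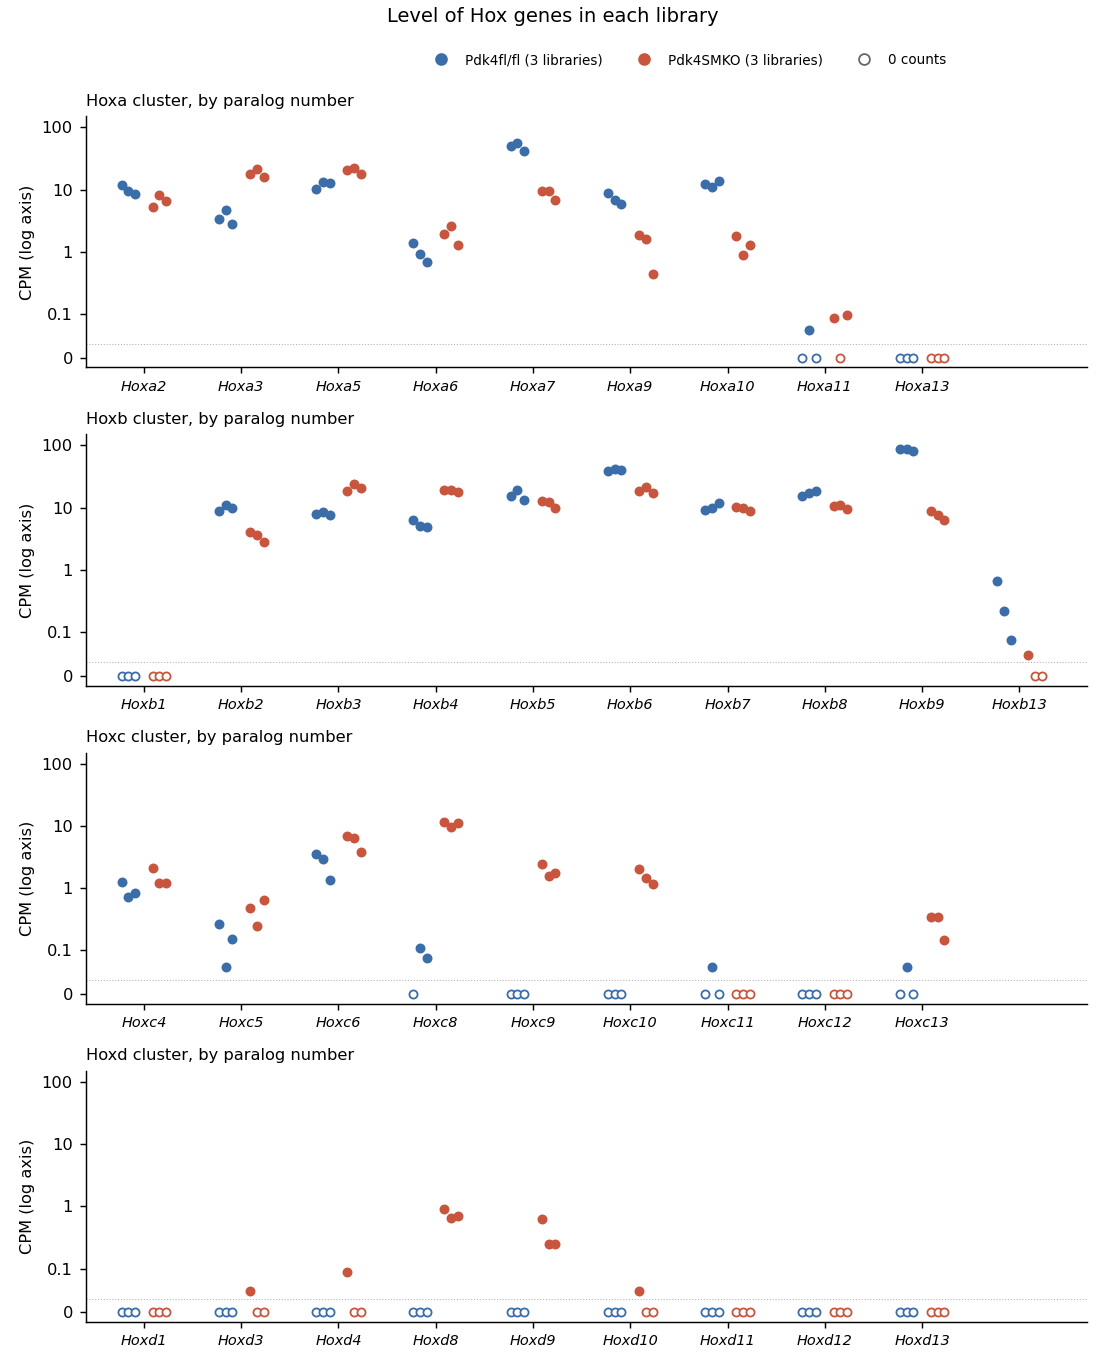
CPM (log axis, 0 drawn below the dotted line) of 37 of the 38 Hox genes in each of the 6 libraries, by cluster and paralog number. Blue points (Pdk4fl/fl) lie above red points (Pdk4SMKO) for Hoxa7, Hoxa9, Hoxa10 and Hoxb9, and red points alone stand above 0 for Hoxc9, Hoxc10, Hoxd8 and Hoxd9.

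In the Hoxa cluster the tested genes of paralog groups 7, 9 and 10 fell. Hoxa7, which patterns the trunk skeleton, had 50.8, 55.5 and 42.5 CPM in Pdk4fl/fl and 9.53, 9.60 and 6.77 CPM in Pdk4SMKO cells, a log2 fold change of -2.52 ± 0.18 (SE, adjusted p = 7.05e-07). Every Pdk4SMKO library lay far below every Pdk4fl/fl library. Hoxa9, known for its role in blood progenitors and leukaemia, had 8.87, 6.81 and 5.98 CPM against 1.89, 1.64 and 0.441 CPM (-2.43 ± 0.43, adjusted p = 0.000424). Here Pdk4SMKO replicate 3 was the lowest by a wide margin, with 9 counts. Hoxa10, needed for posterior patterning and for the uterus, had 12.2, 11.04 and 13.8 CPM against 1.80, 0.896 and 1.28 CPM (-3.20 ± 0.28, adjusted p = 2.47e-06), the largest fall in the cluster. These 3 are the genes above paralog number 6 that were tested in the cluster. Beyond them Hoxa11 had 1 count in all Pdk4fl/fl and 4 in all Pdk4SMKO libraries.

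At the anterior end of the Hoxa cluster the genes did not move together. Hoxa3, which patterns the pharyngeal arches and thymus, had 3.33, 4.78 and 2.80 CPM in Pdk4fl/fl and 17.9, 21.4 and 15.7 CPM in Pdk4SMKO cells (log2 fold change 2.31 ± 0.24, adjusted p = 8.03e-06), a 4.97-fold rise with no overlap. It was the only Hoxa gene called higher in this fit. Its row spans those of Hoxa5, Hoxa6 and the unnamed Hoxa4 row on the same strand, so reads could be split among these rows. Hoxa5, needed for lung development, had 10.1, 13.2 and 12.9 against 20.8, 22.1 and 18.1 CPM and a log2 fold change of 0.75 ± 0.17 (adjusted p = 0.00208), short of the 2-fold limit. Hoxa2, a hindbrain and pharyngeal arch gene, had 12.1, 9.44 and 8.63 against 5.31, 8.06 and 6.62 CPM (-0.59 ± 0.22, adjusted p = 0.0324), also short of the limit, and with library size in place of TMM its log2 fold change was 0.0044. Hoxa6 overlapped between the genotypes (0.681 to 1.40 and 1.28 to 2.64 CPM, adjusted p = 0.0574). The row whose description names Hoxa4, which is not counted among the 38, had 36, 57 and 21 counts in Pdk4fl/fl and 79, 83 and 90 in Pdk4SMKO cells, a log2 fold change of 0.74 ± 0.31 (adjusted p = 0.0468) that did not reach the 2-fold limit.

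In the Hoxb cluster, the Hox cluster with the most counts in every library, the largest change was in Hoxb9, which shapes the thoracic skeleton. Hoxb9 had 87.8, 87.4 and 80.7 CPM in Pdk4fl/fl and 8.96, 7.66 and 6.38 CPM in Pdk4SMKO cells, an 11.1-fold fall (log2 fold change -3.47 ± 0.16, adjusted p = 3.99e-08). The replicates of each genotype lay close together. Hoxb6, a trunk gene that is also used in limb buds, had 39.5, 41.6 and 40.8 against 18.5, 21.7 and 17.5 CPM (-1.08 ± 0.14, adjusted p = 3.76e-05). This fall only just passed the 2-fold limit, and it was -0.87 with upper-quartile factors and -0.48 with library size alone. Between these genes, Hoxb7 (9.33 to 12.1 against 8.98 to 10.1 CPM, adjusted p = 0.611) overlapped between the genotypes, and Hoxb8 (15.6, 17.1 and 18.6 against 10.7, 10.9 and 9.62 CPM, -0.71 ± 0.16, adjusted p = 0.0019) was lower in every Pdk4SMKO library without reaching the limit. Hoxb5 (13.4 to 19.5 against 10.0 to 12.8 CPM, -0.46 ± 0.19, adjusted p = 0.045) did not reach it either, and its direction turned to 0.14 with library size alone. The log2 fold changes along the Hoxb cluster thus did not follow the order of the paralog numbers.

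The anterior Hoxb genes split. Hoxb4, known for its effect on blood stem cells, had 6.47, 5.16 and 4.84 CPM in Pdk4fl/fl and 19.1, 19.0 and 18.0 CPM in Pdk4SMKO cells (log2 fold change 1.77 ± 0.18, adjusted p = 7.35e-06). Hoxb3, which acts in the hindbrain and pharyngeal arches, had 7.87, 8.46 and 7.57 against 18.4, 24.2 and 20.4 CPM (1.40 ± 0.17, adjusted p = 2.89e-05). Both were higher in every Pdk4SMKO library than in any Pdk4fl/fl library. Their neighbour Hoxb2, a hindbrain gene, went the other way, with 8.93, 11.2 and 9.76 against 4.04, 3.63 and 2.80 CPM (-1.51 ± 0.22, adjusted p = 0.000124). With library size alone its log2 fold change was -0.90. At the far posterior end, which lies apart from the rest of the cluster, Hoxb13 had 10, 4 and 1 counts against 1, 0 and 0, a ratio of the totals of 20.4 (95% interval 3.14 to 860, covering counting error only), and it was not tested.

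**Figure D2:**
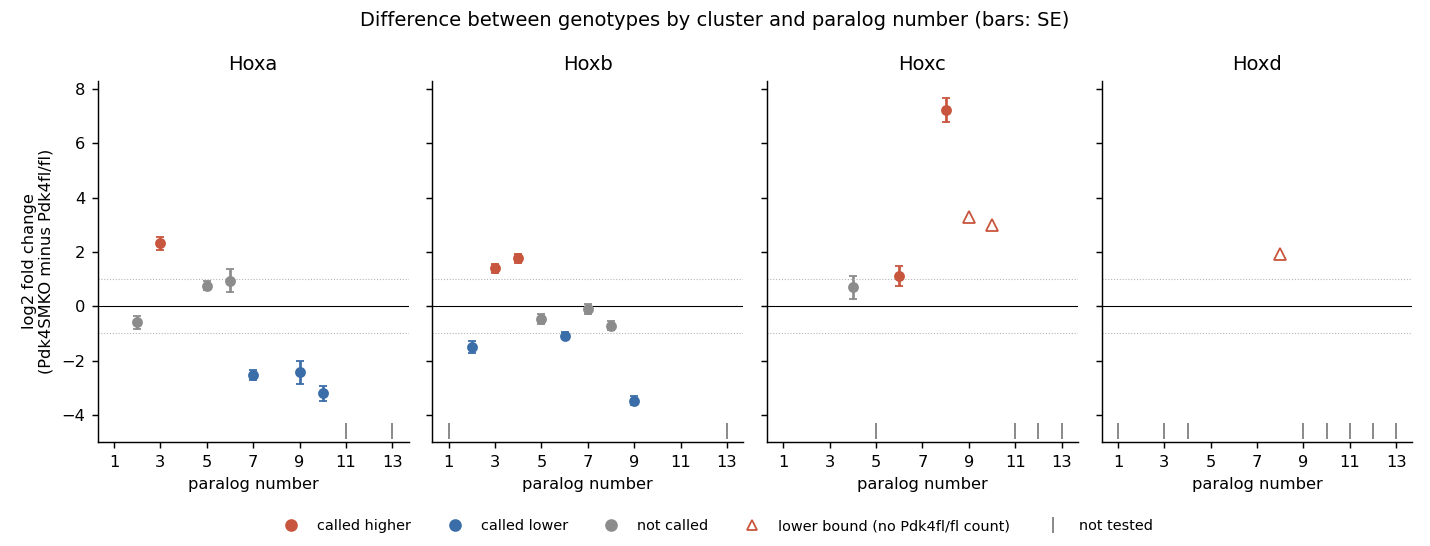
Log2 fold change (Pdk4SMKO minus Pdk4fl/fl, with SE) of 21 of the 22 tested Hox genes against paralog number, 1 panel per cluster. Red and blue mark genes called higher and lower, open triangles the lower bounds of genes with no Pdk4fl/fl count, ticks the 16 untested genes, and dotted lines the 2-fold limit. The highest and lowest points are at numbers 3 and 10 for Hoxa and at 4 and 9 for Hoxb, whereas all Hoxc points lie above 0.

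Apart from Hoxc4, Hoxc5 and Hoxc6, no Hoxc gene had more than 2 counts in any Pdk4fl/fl library. Of the 5 tested Hoxc genes, 4 were higher in Pdk4SMKO cells, beside 32.8% of all tested genes. Among these, Hoxc8, Hoxc9 and Hoxc10 passed the low-count filter through their Pdk4SMKO counts alone, so they could only be called higher. Hoxc8, which sets the identity of trunk segments, had 0, 2 and 1 counts in Pdk4fl/fl and 260, 196 and 224 counts in Pdk4SMKO cells, or 11.4, 9.75 and 10.99 CPM (log2 fold change 7.23 ± 0.44, adjusted p = 2.08e-07). The ratio of the totals was 166 (95% interval 56.7 to 809). Hoxc9, expressed from the lower trunk backwards, had no count in any Pdk4fl/fl library and 55, 32 and 36 in Pdk4SMKO cells, at least 9.76-fold higher against the floor of 3 counts per library (adjusted p = 4.49e-05). Hoxc10, a gene of the lumbar level and hindlimb, had no count in Pdk4fl/fl and 47, 29 and 24 in Pdk4SMKO cells, at least 7.92-fold higher (adjusted p = 8.77e-05). These 3 genes lie next to each other in the cluster, and no Pdk4fl/fl library reached the floor for any of them. Over the whole table, 258 genes without a count in Pdk4fl/fl libraries were called higher.

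Hoxc6, a thoracic gene, was transcribed in both genotypes. It had 3.53, 2.91 and 1.36 CPM in Pdk4fl/fl and 6.85, 6.37 and 3.78 CPM in Pdk4SMKO cells (1.11 ± 0.37, adjusted p = 0.0179). Replicate 3 was the lowest of each genotype, and the call was lost without Pdk4fl/fl replicate 3 (0.81), without Pdk4SMKO replicate 1 (0.96) and without Pdk4SMKO replicate 2 (1.03, adjusted p = 0.0525). Hoxc4 overlapped between the genotypes (0.714 to 1.27 and 1.19 to 2.11 CPM, adjusted p = 0.142). Hoxc5, whose row spans those of Hoxc6, Hoxc8, Hoxc9 and Hoxc10, had 4, 1 and 2 counts against 11, 5 and 13 and was not tested. Hoxc13, the gene at the far end of the cluster, had 0, 1 and 0 counts against 8, 7 and 3, a ratio of 13.2 (95% interval 2.09 to 551). Between Hoxc10 and Hoxc13 the cluster stayed at 0 or 1 count in every library (Hoxc11 and Hoxc12).

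The Hoxd cluster had no count in any Pdk4fl/fl library. In Pdk4SMKO cells Hoxd8, which acts in the trunk, had 21, 13 and 14 counts, at least 3.81-fold higher than the floor (adjusted p = 0.000315). It passed the low-count filter through these counts alone, so it could only be called higher. Hoxd9, a gene of the posterior trunk and limbs, had 14, 5 and 5 counts, at least 1.87-fold higher, and did not pass the filter. Hoxd3, Hoxd4 and Hoxd10 had 1, 2 and 1 counts, all in Pdk4SMKO replicate 1. At 0.647 to 0.922 CPM for Hoxd8, this cluster stood far below the others.

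The summed level of the 38 genes was 301, 311 and 282 CPM in Pdk4fl/fl and 193, 204 and 171 CPM in Pdk4SMKO cells. This difference depended on the scaling, since per 1000000 counts of the unscaled library the sums were 252, 252 and 221 against 242, 247 and 211, which overlap. The TMM factors were 0.784 to 0.838 in Pdk4fl/fl and 1.21 to 1.26 in Pdk4SMKO libraries, and scaling by library size alone moved the median log2 fold change of all tested genes by 0.61, to 0.72, and that of the tested Hox genes to 0.99. It made 4 Hox genes lower and 11 higher in place of 6 and 8, beside 2390 lower and 6184 higher among all genes. The Hoxc sum (5.07, 3.90 and 2.42 against 25.7, 21.0 and 19.7 CPM) was higher and the Hoxb sum (192, 201 and 188 against 103, 109 and 93.7 CPM) lower in every Pdk4SMKO library under both scalings. The Hoxa sums overlapped per 1000000 counts of the unscaled library (71.9 to 87.4 and 69.7 to 87.6).

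Shares within a library do not depend on the scaling. Genes of paralog groups 9 to 13 took 36.4%, 34.0% and 35.6% of the Hox counts in Pdk4fl/fl and 9.46%, 6.79% and 6.75% in Pdk4SMKO cells. Groups 1 to 3 took 12.6%, 12.5% and 11.9% against 25.7%, 31.1% and 30.3%, and groups 4 to 8 took 51.0%, 53.6% and 52.5% against 64.9%, 62.1% and 63.0%. The genotypes did not overlap in any of the 3 classes, with the share of groups 9 to 13 lower and the other shares higher in Pdk4SMKO cells. Shares sum to the whole, so they move against each other, and Hoxb9 alone took 29.2%, 28.1% and 28.6% of the Hox counts against 4.64%, 3.76% and 3.73%. The summed level of groups 4 to 8 was lower in every Pdk4SMKO library in CPM (153.6, 166.7 and 148.2 against 125.3, 126.5 and 107.5), while per 1000000 counts of the unscaled library it overlapped (116.0 to 135.0 and 132.6 to 157.1). Groups 1 to 3 were higher and groups 9 to 13 lower in every Pdk4SMKO library under both scalings. Groups 1 to 3 did not move as a class, however. Group 3 rose from 10.4-13.2 to 36.1-45.6 CPM, while group 2 fell from 18.4-21 to 9.35-11.7 CPM. By cluster, the Hoxc share was 1.68%, 1.25% and 0.858% against 13.3%, 10.3% and 11.6%, and the Hoxb share was 63.6-66.6% against 53.2-54.8%. The Hoxa share overlapped (32.6-34.7% and 32.6-35.6%).

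**Figure D3:**
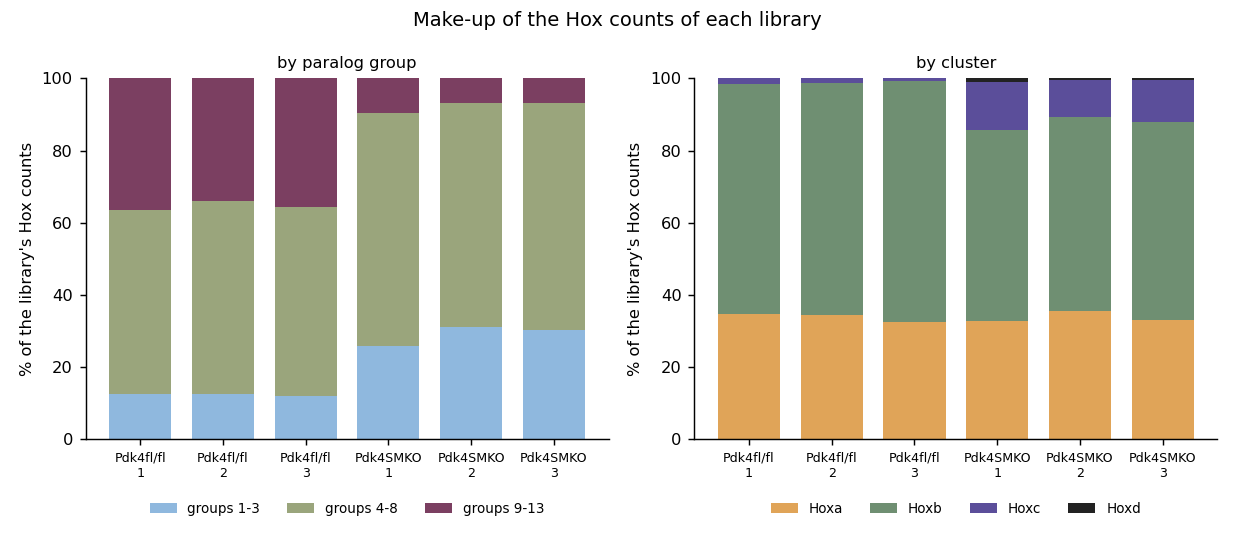
Share of each library's Hox counts (%) taken by paralog groups 1 to 3, 4 to 8 and 9 to 13 (left) and by each cluster (right), 1 bar per library. Groups 9 to 13 take 34.0-36.4% in the Pdk4fl/fl bars and 6.75-9.46% in the Pdk4SMKO bars, and the Hoxc share is at most 1.68% in Pdk4fl/fl and at least 10.3% in Pdk4SMKO libraries.

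The clusters from which a paralog group was transcribed differed between the genotypes. In group 8, Hoxb8 took 100%, 99.4% and 99.6% of the counts in Pdk4fl/fl libraries, whereas in Pdk4SMKO libraries Hoxb8 took 46.4%, 51.3% and 45.2% and Hoxc8 49.6%, 45.7% and 51.6%, and the sum of the group was 15.6, 17.2 and 18.7 against 23.01, 21.4 and 21.3 CPM. Per kilobase, Hoxb8 (3.95 ± 0.27 CPM per kb, SD, n = 3) and Hoxc8 (3.79 ± 0.30) differed in Pdk4SMKO cells by less than their spread. In group 9 the sum was 96.7, 94.2 and 86.7 against 13.9, 11.2 and 8.83 CPM, and Hoxc9 and Hoxd9, absent from Pdk4fl/fl counts, took 14.3-20% and 2.23-4.43% of the counts in Pdk4SMKO cells. In group 10, Hoxa10 took every count in Pdk4fl/fl cells, and Hoxc10 took 52.8%, 61.7% and 48% in Pdk4SMKO cells, where the sum was 3.91, 2.34 and 2.45 CPM against 12.2, 11.04 and 13.8. Thus the group 8 sum was higher in Pdk4SMKO cells, while the sums of groups 9 and 10, with the Hoxc genes included, were lower.

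**Figure D4:**
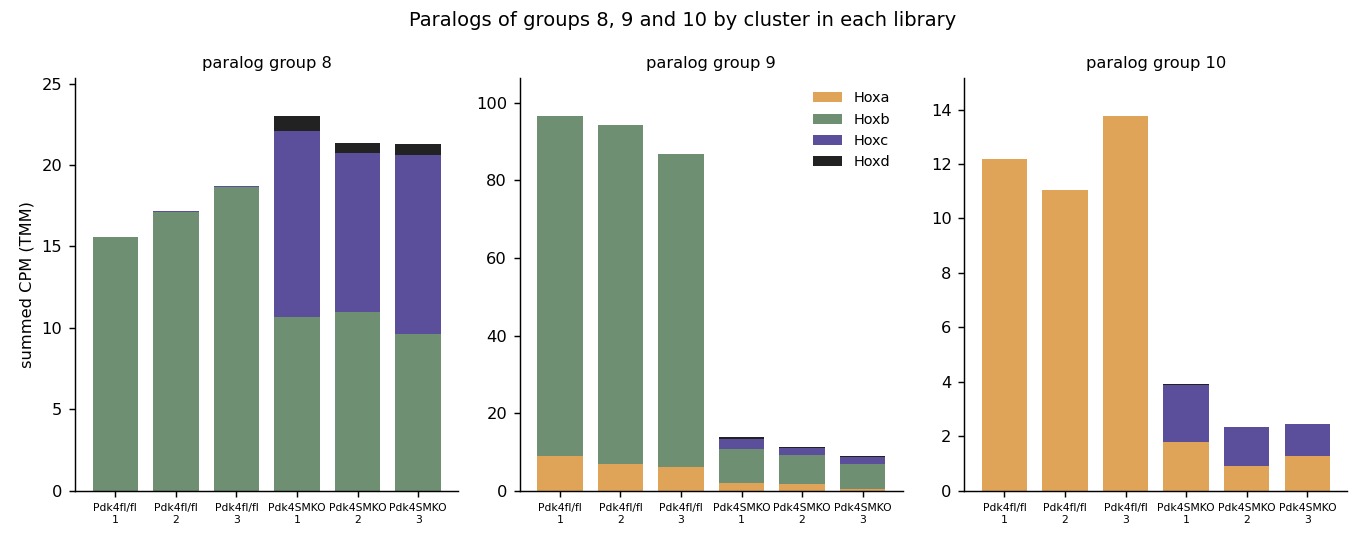
Summed CPM of paralog groups 8, 9 and 10 in each library, stacked by cluster. In Pdk4SMKO cells Hoxc8 (purple) adds 9.75-11.4 CPM to group 8, and Hoxc9 and Hoxc10 add 1.59-2.41 and 1.18-2.06 CPM to groups 9 and 10, whose sums are lower than in Pdk4fl/fl cells.

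Counts of genes of the same cluster can also be set against each other within a library, which likewise needs no scaling. These pairs were chosen after the values were seen, and the ratios are of counts, so only their difference between genotypes is read. The ratio of Hoxb9 to Hoxb4 was 13.6, 16.9 and 16.7 in Pdk4fl/fl and 0.468, 0.404 and 0.354 in Pdk4SMKO cells. That of Hoxa10 to Hoxa5 was 1.21, 0.834 and 1.07 against 0.0867, 0.0405 and 0.0705, and that of Hoxa7 to Hoxa3 was 15.2, 11.6 and 15.2 against 0.533, 0.450 and 0.431. In each of these pairs the ratio of the gene with the higher paralog number to the other was lower in every Pdk4SMKO library than in any Pdk4fl/fl library. Hoxb2 to Hoxb3, with the lower number first, was also lower, at 1.14, 1.32 and 1.29 against 0.219, 0.150 and 0.137. Per kilobase, the highest Hoxa gene was Hoxa7 in Pdk4fl/fl (17.2 ± 2.30 CPM per kb, SD, n = 3) and Hoxa5 in Pdk4SMKO cells (10.8 ± 1.08), and the highest Hoxb gene was Hoxb9 in Pdk4fl/fl (33.2 ± 1.54) and Hoxb6 in Pdk4SMKO cells (9.85 ± 1.13).

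**Figure D5:**
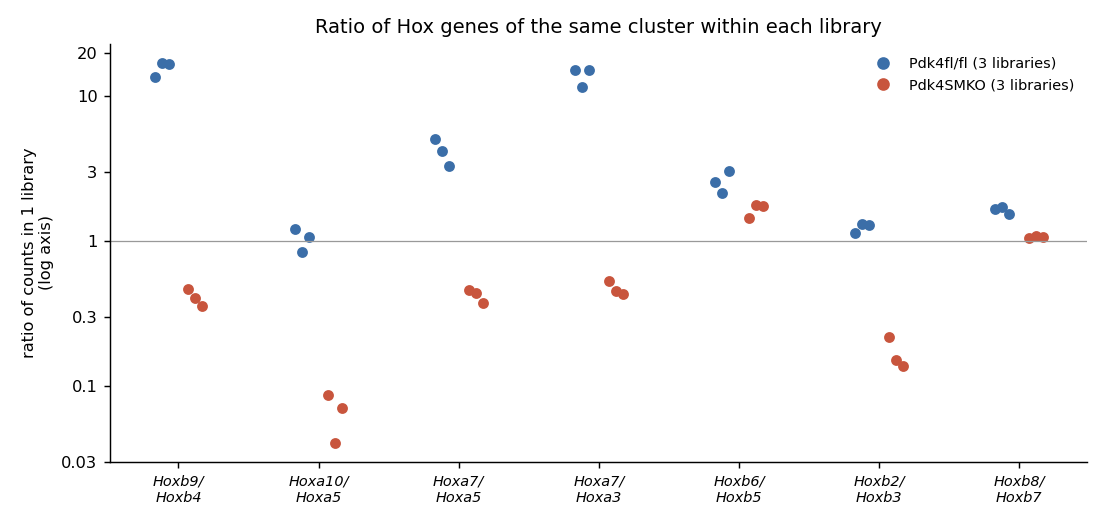
Ratio of the counts of Hox genes of the same cluster within each library (log axis), 3 points per genotype. The ratio of Hoxb9 to Hoxb4 lies between 13.6 and 16.9 in Pdk4fl/fl and between 0.354 and 0.468 in Pdk4SMKO libraries, and no pair shown overlaps between the genotypes.

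Other rows inside the clusters moved with or against their neighbours. Of the 22 other rows within the Hoxa span, 8 were tested, of which 1 was lower (Gm15050, -1.53) and 3 higher (5730596B20Rik, 3.39, Hoxaas2, 1.75, and Hoxaas3, 1.04), beside 59.3% of all tested genes called. All 4 overlap Hoxa3 on the opposite strand. Among them 5730596B20Rik (7, 4 and 8 Pdk4fl/fl counts) and Hoxaas3 (7, 14 and 9) passed the low-count filter through their Pdk4SMKO counts. These genes could only be called higher. Hotairm1, a noncoding RNA of the cluster, had 3.47 to 7.27 against 4.83 to 6.23 CPM (adjusted p = 0.869). Of 9 other rows in the Hoxb span, 4 were tested and all 4 were higher (32.8% of all tested genes were): Gm11536 (2.17), Gm53 (1.89), Hoxb3os (1.69) and Hoxb5os (1.19). Gm11536 (12, 9 and 5 Pdk4fl/fl counts) and Gm53 (1, 9 and 6) passed the low-count filter through their Pdk4SMKO counts. These genes could only be called higher. Hoxb3os overlaps Hoxb2 and Hoxb3, and Hoxb5os overlaps Hoxb5 and Hoxb6, on the opposite strand. The sources used here do not say whether strand was used in counting, so reads of these antisense genes and of their Hox partners cannot be told apart. The Mir10a hairpin row near Hoxb4 had no count in Pdk4fl/fl and 12, 10 and 4 in Pdk4SMKO cells and was not tested. None of the 7 other rows in the Hoxc span, Hotair among them, or the 10 in the Hoxd span was tested.

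Outside the clusters, the 3 nearest tested protein-coding genes on each side, 24 in all at 28.9 to 981 kb, gave 6 lower, 5 higher and 13 not called (45.8% called against 59.3% of all tested genes). Next to the Hoxc cluster on the side of Hoxc4, Smug1, a DNA repair glycosylase, was higher (1.60, 0.988 and 0.908 against 17.2, 19.9 and 21.1 CPM, 4.05 ± 0.25). Beyond it Cbx5 was higher (1.26) and Hnrnpa1 lower (-1.77), whereas on the side of Hoxc13 none of the 3 genes was called. Skap2, on the anterior side of the Hoxa cluster, had a log2 fold change of -0.37 (adjusted p = 0.0621), and Mtx2, beside Hoxd1, one of 0.28 (adjusted p = 0.27). Evx1 and Evx2, the homeobox genes that border the posterior ends of Hoxa and Hoxd, had no count in any library.

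All 9 genes of the TALE list, cofactors that bind DNA with Hox proteins, were tested, and 2 were lower and 4 higher (66.7% called, near the 59.3% of all tested genes, with a median log2 fold change of 0.69 against 0.12). Meis1, a partner of posterior and anterior Hox proteins, rose from 1.13, 1.37 and 1.13 to 14.5, 18.2 and 17.4 CPM (3.76 ± 0.22, adjusted p = 1.82e-07). Pknox2 (1.66) and Meis2 (1.57) rose less, while Pknox1 (-2.30) and Pbx4 (-1.54) fell. Pbx2, Pbx3 and Meis3 did not pass.

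Among genes that act on the clusters, 27 Polycomb genes gave 5 lower and 5 higher with a median of -0.03, so that 37.0% were called against 59.3% of all tested genes. The lower genes were Rbbp4 (-2.34), Pcgf2 (-1.88), Phf1 (-1.77), Rnf2, a catalytic subunit of complex 1 (-1.43), and Suz12, a core subunit of complex 2 (-1.36). The higher ones included Pcgf6 (2.12), Cbx6 (1.80), Cbx2 (1.79) and Ring1 (1.13), while Ezh2, the methyltransferase of complex 2, had 27.9 to 36.4 against 28.7 to 33.4 CPM. Of 13 Trithorax-type genes and demethylases of H3K27, 3 were lower, namely the demethylase Kdm6b (-2.31), Rbbp5 (-1.28) and Kmt2a, a methyltransferase that keeps Hox genes active (-1.13), and Kmt2d (1.61) was higher, with a median of -0.36 and 30.8% called against the same 59.3%.

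Of 19 genes of retinoic acid and Cdx, 13 were tested, of which 3 were lower and 6 higher with a median of 0.24 (69.2% called against 59.3% of all tested genes). Aldh1a2, which makes retinoic acid, had 0, 0.0549 and 0 CPM in Pdk4fl/fl and 11.9, 8.91 and 7.26 CPM in Pdk4SMKO cells (adjusted p = 4.31e-07), from 1 count in all Pdk4fl/fl libraries. Cyp26b1, which degrades it, rose from 0.733-1.32 to 15.1-18.8 CPM (4.03 ± 0.26). Aldh1a1 (3.12) and Rdh10 (2.72), which also serve its synthesis, were higher, whereas Aldh1a3, a further enzyme of its synthesis, was lower (1.93, 1.15 and 1.36 against 0.0878, 0.796 and 0.589 CPM, -1.60 ± 0.59, adjusted p = 0.029). Crabp2, which carries it in the cell, was lower (-3.82). Crabp1, with 1.07, 1.65 and 2.80 CPM in Pdk4fl/fl, had no count in Pdk4SMKO cells. It passed the low-count filter through its Pdk4fl/fl counts alone, and Aldh1a2 through its Pdk4SMKO counts alone. Each could thus be called in 1 direction only. Cdx1, Cdx2 and Cdx4, known activators of central Hox genes, had no count in any library.

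Of 49 listed homeodomain genes outside the clusters, 47 were found and 25 tested, of which 9 were lower and 10 higher with a median of 0.58 (76.0% called against 59.3% of all tested genes). Shox2, a limb and heart gene, fell from 16.7, 15.2 and 16.1 to 0.132, 0.299 and 0.294 CPM (-6.03 ± 0.29, adjusted p = 5.85e-08), and Dlx5 fell from 3.53, 3.08 and 2.42 CPM to no count. Zfhx4, Irx1, Irx2, Msx2 and En1 had no count in Pdk4fl/fl libraries and were called higher, with Zfhx4 at 3.47, 2.74 and 2.31 CPM. They passed the low-count filter through their Pdk4SMKO counts alone, as Dlx5 and Shox2 did through their Pdk4fl/fl counts.

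Promoter windows from RefSeq (GRCm38.p6), 250 bases before to 50 after a start, were found for 22 of the Hox genes (24 windows) and searched on both strands. Windows of Hoxb9, Hoxc8, Hoxc9 and Hoxc10, among other genes, were not analysed here. AGGTCA, the core element bound by retinoic acid receptors, was in 29.2% of them and in 16.3% of 32851 windows of all genes. TTTATG, a Cdx site, was in 20.8% against 11.9%, TGATTNAT, a Hox-Pbx site, in 8.3% against 3.2%, and TATAAA, the TATA box, in 16.7% against 13.6%. The reverse complement of TTTATG shares 5 letters with TATAAA. Of the 7 windows with AGGTCA, 2 belong to genes called higher (Hoxb4 and Hoxd8), and the others to Hoxa5, Hoxc4, Hoxd3, Hoxd4 and Hoxd10. Median GC content was 57.7% against 52.7%.

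Marker genes of other cell types differed between the same libraries, in which 59.3% of all tested genes were called (32.8% higher and 26.5% lower). The 7 mesothelial markers summed to 74.2-99.99 CPM in Pdk4fl/fl and 708-1298 CPM in Pdk4SMKO cells, with 6 of 6 tested higher, among them Upk1b and Msln. Upk1b, Lrrn4 and Wt1 had at most 5 counts in any Pdk4fl/fl library, and Upk3b had 8, 15 and 4. These genes passed the low-count filter through their Pdk4SMKO counts, so they could only be called higher. Krt8, which overlapped between the genotypes (4, 1 and 3 against 15, 4 and 7 counts), was not tested. The 7 fibroblast markers summed to 634-867 against 5429-7443 CPM (4 higher and 1 lower of 7). Col1a1 made up most of both sums (478.5-714.8 against 4604-6777 CPM). Dpt was lower (-1.015), and Pdgfra and Pi16 were not called. Lum, called higher, had 4, 6 and 4 Pdk4fl/fl counts and passed the filter through its Pdk4SMKO counts alone. The 6 endothelial markers summed to 14.1-23.7 against 2.84-5.62 CPM (2 of 2 tested lower). The 7 macrophage markers summed to 21.4-38.0 against 9.71-30.5 CPM (5 higher and 1 lower of 6). Cd68, the gene called lower, made up nearly all of the Pdk4fl/fl sum (37.9, 34.5 and 21.3 CPM). C1qa, C1qb, Adgre1 and Tyrobp were at 0 in every Pdk4fl/fl library, and Csf1r had 2, 4 and 2 counts there. These 5 genes also passed the filter through their Pdk4SMKO counts alone. The 8 smooth muscle markers summed to 814-853 against 741-993 CPM (4 higher and 3 lower). Among the higher, Des and Myh11 passed the filter through their Pdk4SMKO counts, as given above. Pdk4SMKO replicate 1 had the highest mesothelial (1298 CPM) and macrophage (30.5 CPM) sums of its genotype as well as the highest Hoxc (25.7 CPM) and Hoxd (1.71 CPM) sums. Without that library Hoxc8, Hoxc9, Hoxc10 and Hoxd8 were still called higher. The part of these markers in the Hox differences was not tested.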

How the data were processed

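The authors deposited raw counts for each gene in 1 table, and the aligner, the counting program and the use of strand are not given in the sources used here. The labels name the build GRCm39, whereas the identifiers are those of the C57BL/6NJ strain annotation. The study's methods and the labels name different library kits. Groups follow the labelled genotype. The members and the gene lists were chosen with earlier results of these data known.

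The analysis used edgeR 4.0.16 under R 4.3.3 (filterByExpr, TMM, quasi-likelihood test on genotype alone over all 41721 rows, Benjamini-Hochberg adjustment over 14085 genes), with a call at adjusted p below 0.05 and absolute log2 fold change from 1 upwards. CPM are counts scaled by the TMM-adjusted library size. The fit was tested on simulated data. For a genotype with no count at all, a fold is a bound against 3 counts per library, and where a genotype had 1 to 3 counts in all, the ratio of totals has a Clopper-Pearson interval. Floors and intervals cover counting error only. All 38 Hox rows enter the counts and sums, some items are not reported here by name, and otherwise the rows with more than 3 counts in at least 3 libraries are given with values, as are noncoding rows in the clusters, the nearest tested genes and at most 4 genes per list beyond those on which a statement turns. Alternatives were DESeq2 1.42.0, other scalings, filters and thresholds, a fit on protein-coding genes, a block for the replicate number and leaving out each library.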

Additional observations from a re-analysis of the deposited data

How the results depend on the processing

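Over 330 alternative values of 21 tested Hox genes, 304 kept their direction and their side of the threshold, 10 gained and 12 lost a call, and 4 changed sign, none of them a called gene: Hoxb5 (0.14), Hoxb7 (0.506) and Hoxa2 (0.00438) with library size alone, and Hoxb7 (0.109) with upper-quartile factors. Hoxa3, Hoxa7, Hoxa9, Hoxa10, Hoxb9, Hoxc8, Hoxc9, Hoxc10 and Hoxd8 kept their call in every alternative in which they were tested. The number of Hox genes called higher was 4 with at least 10 counts in every library, a filter that removes genes at 0 in Pdk4fl/fl cells, and 5 with a log2 fold change of at least 2. For Hoxa genes it was 2 with upper-quartile factors, 3 with library size alone, 2 with no fold limit, and 1 to 2 on leaving out a library. Hoxb genes called lower numbered 1 with library size alone, 5 with no fold limit and 1 at a log2 fold change of at least 2, and 0 were then called higher. Hoxc genes called higher numbered 1 with at least 10 counts, and Hoxd genes 2 with DESeq2, 2 without a filter and 0 with at least 10 counts. The median log2 fold change was -0.0497, 0.34 and 0.124 for Hoxa with upper-quartile factors, library size alone and no filter, and -0.377, 0.017 and -0.724 for Hoxb with upper-quartile factors, library size alone and DESeq2. For Hoxc it was 7.81 with library size alone, 3.59 with DESeq2, 2.5 without a filter, 1 with at least 10 counts and 4.43 to 7.22 on leaving out a library, against 7.23, or 2.99 with Hoxc9 and Hoxc10 at their bounds. Among all genes 2390 were lower with library size alone, and 1765 were lower and 2645 higher at a log2 fold change of at least 2. The cause of changes not set by the filter or threshold itself was not tested.

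Replicate numbers were shared by the genotypes. Deviations from the genotype means correlated by 0.0396, 0.0604 and 0.176 between libraries of the same number, so the numbers are not taken to pair them. With the replicate block 6 Hox genes were lower and 8 higher (3704 and 4577 of all genes), and replicates 2 and 3 but not 1 of Pdk4fl/fl correlated best with their own number. Depth limits the genes near the floor of 3 counts, above all the Hoxd genes and Hoxc5, Hoxc11 and Hoxc13.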
